A study of Homo sapiens with 4 samples.

Results

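The set described here comprised the noncoding transcripts of 9 genes of the CCR4-NOT complex, *CNOT1*, *CNOT2*, *CNOT3*, *CNOT4*, *CNOT6*, *CNOT7*, *CNOT8*, *CNOT10* and *CNOT11*. Every transcript in the deposited table that GENCODE release 29 assigns to one of these genes was taken, which gave 56 of the 106179 transcripts and 9 of the 29585 genes with a named transcript. The family was selected on its measured counts in these 4 libraries, chosen by the far higher count of CNOT3-210, a transcript of *CNOT3*, in the resistant ones. Counts, isoform shares and gene sums of the family are therefore given as a description that no test supports.

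The libraries were made from HepG2, a widely used human cell line grown from a liver tumour and labelled as hepatocellular carcinoma. Cells labelled oxaliplatin resistant (2 libraries, replicates 1 and 2) were compared with wild-type cells of the line (2 libraries, replicates 1 and 2), and the study asked which long noncoding RNAs differ between them. Oxaliplatin is a platinum compound that binds DNA. No treatment at harvest is labelled for any library, and both groups grew in the same serum-containing DMEM. The sources used here give neither the dose and length of the selection nor whether the resistant cells are 1 clone or a mixed population. No label states that libraries of a group are separate cultures, so a p-value measures only the spread between these libraries, and that spread may be technical.

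CCR4-NOT is the main cytoplasmic complex that shortens the poly(A) tails of messenger RNAs, a step that precedes decapping and decay. *CNOT1* encodes the scaffold on which the other subunits assemble, *CNOT2* and *CNOT3* encode its NOT module, and the catalytic deadenylases come from *CNOT6* (a CCR4-type nuclease) and from *CNOT7* and *CNOT8* (CAF1-type nucleases). *CNOT10* and *CNOT11* encode a further module bound to the scaffold, and *CNOT4* encodes a RING-type E3 ubiquitin ligase. The transcripts counted here are annotated either as retained introns, which keep sequence that is spliced out of the mRNA, or as processed transcripts, which lack an annotated open reading frame. The subunits' mRNAs were outside the table, and no statement about their level or about the proteins can be made from these values.

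The sequence that sets the *CNOT3* transcripts apart from the coding ones is short, and it is shown because the counts of these transcripts carry the widest difference in the family. *CNOT3* lies at chr19:54137717-54155708 on the plus strand (GRCh38). CNOT3-210 (ENST00000618939) has 16 exons and 4537 bases, of which 94.4% lie in exons of coding *CNOT3* transcripts. Beyond those exons it keeps 1 whole intron of 256 bases at chr19:54143750-54144005, the last base of which is also the first base of a partial coding transcript. Its last exon also spans the final intron of CNOT3-201, sequence that lies within an exon of another coding transcript. CNOT3-211 (ENST00000642159, 516 bases) runs 153 bases into an intron and ends there, at chr19:54143187-54143339. CNOT3-213 (ENST00000644707, 299 bases) runs only 10 bases past an exon, at chr19:54152326-54152335. In the stretches below, read 5′ to 3′ from the GENCODE 29 transcript sequences, capitals mark the GT and AG at the intron ends.
CNOT3-210: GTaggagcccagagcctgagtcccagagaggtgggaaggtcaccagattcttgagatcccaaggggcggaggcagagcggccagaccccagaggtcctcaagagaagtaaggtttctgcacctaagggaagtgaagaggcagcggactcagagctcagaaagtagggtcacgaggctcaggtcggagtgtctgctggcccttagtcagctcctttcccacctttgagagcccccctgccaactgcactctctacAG
CNOT3-211: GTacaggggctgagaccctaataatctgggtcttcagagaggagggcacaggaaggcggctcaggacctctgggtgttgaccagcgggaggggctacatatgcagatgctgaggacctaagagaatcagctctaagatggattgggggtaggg
CNOT3-213: GTgagggacc

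**Figure D1:**
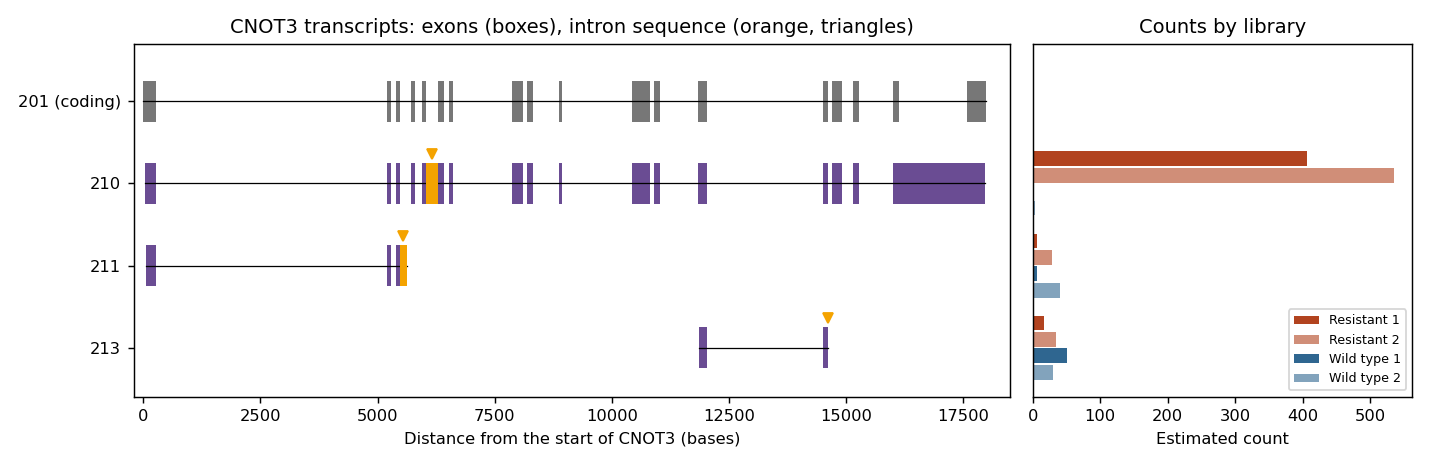
Left, exons (boxes) of CNOT3-201, a coding transcript, and of the 3 noncoding transcripts of CNOT3, drawn to scale by distance in bases from the start of the gene; orange marks sequence outside every coding exon, with a triangle above it. Right, the estimated count of each noncoding transcript in each library (bars), where CNOT3-210 reached 407 and 536 in the resistant libraries, against 2 and 3 in the wild-type ones.

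The table as a whole held 43473826 and 44063444 counts in the resistant libraries, against 38113398 and 34898860 in the wild-type ones. Where a library shows 0, up to 3 counts are possible. Noncoding transcripts of 14 of 20 hepatocyte marker genes were in the table, 9 of them at 0 in all 4 libraries (*AFP*, *TTR* and *SERPINA1* among them). *ALB* had 0 and 0 counts in resistant cells, against 8 and 0 in wild type. The table holds almost no mRNAs (123 protein-coding transcripts), so the liver identity of the cells could not be checked from it. The summed level of these markers, nearly all of it from the keratin genes *KRT8* and *KRT18*, was 235.0 and 201.0 CPM (counts scaled to library size) in resistant cells, against 335.1 and 592.2 CPM in wild type. The 8 fibroblast markers, of which *COL1A2* and *LUM* were at 0 in all 4 libraries, summed to 205.4 and 177.7 CPM in resistant cells, against 215.0 and 251.0 CPM in wild type. Nearly all of this sum came from *VIM* and *FN1*, which differed in direction. Mean *VIM* was 79.6 CPM in resistant cells and 131.7 CPM in wild type, without overlap. Mean *FN1* was 109.4 CPM in resistant cells and 93.7 CPM in wild type, with overlapping groups. The sum is therefore not read as a fibroblast signal. Endothelial markers summed to at most 0.101 CPM and leukocyte markers to at most 0.719 CPM in any library, with *KDR* and *CD74* at 0 in all 4. The part of these marker levels in the values below was not tested. In bulk RNA, fewer cells of a type and less RNA per cell cannot be told apart.

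The 9 genes together held 23531 and 18870 counts in the resistant libraries, against 17004 and 13839 in the wild-type ones. Relative to all counts of a library these were 0.0541% and 0.0428% in resistant cells, against 0.0446% and 0.0397% in wild type. The groups overlapped, since wild-type replicate 1 lay above resistant replicate 2. Of the 56 transcripts, 45 had a count in at least 1 library, 35 had one in all 4, and 11 were at 0 in all 4. All 11 were among the 30 processed transcripts, and none of the 26 retained introns was at 0 throughout. Retained introns took 47.2% (exact 95% binomial interval 46.5 to 47.8) and 50.8% (50.1 to 51.5) of the family's counts in resistant replicates 1 and 2, against 41.0% (40.3 to 41.8) and 39.8% (38.9 to 40.6) in wild-type replicates 1 and 2, without overlap between the groups. This gap rested on 1 processed transcript, CNOT2-243. Without it, a choice made after seeing the data, the shares were 49.4% (48.7 to 50.05) and 50.8% (50.1 to 51.5) in resistant replicates 1 and 2, against 50.1% (49.3 to 51.0) and 46.3% (45.4 to 47.2) in wild-type replicates 1 and 2, and the groups overlapped. Such intervals and limits cover counting error alone.

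Transcripts were tested across the whole table with the edgeR quasi-likelihood test and Benjamini-Hochberg adjustment, and 40 of the 56 transcripts passed its filter on low counts. Among these, 0 passed an adjusted p of 0.05 (smallest adjusted p = 0.329). The share called over all 42393 transcripts was also 0%. At an unadjusted p under 0.05 there were 3 (CNOT3-210, CNOT2-230 and CNOT2-238), all with a higher mean in resistant cells, beside 7.74% of all transcripts tested (4.56% higher and 3.18% lower). DESeq2 called 2 of the 40 (CNOT3-210 and CNOT2-230), beside 5.33% of all transcripts, and limma-voom called 0, beside 0%. The 4 values of a transcript fell without overlap in 10 of 40 with the resistant pair higher, beside 21.4% of all transcripts, and in 8 of 40 with it lower, beside 18.9%. The contrast chose the family, so nothing is read from these counts. The median log2 difference, resistant minus wild type, was 0.0036 over the 40 transcripts and 0.024 over all tested, with 20 differences above and 20 below 0.

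Reads of overlapping transcripts are hard to assign to 1 of them, so counts were also summed per gene. The sums hold no coding transcripts, so they do not settle how reads shared with the mRNAs were assigned. All 9 gene sums were tested and 0 passed in edgeR (smallest adjusted p = 0.349), with 1 at an unadjusted p under 0.05, *CNOT3*. Over all 13745 gene sums 0% passed and 8.67% had an unadjusted p under 0.05 (4.74% higher and 3.93% lower). DESeq2 called 1 of the 9, *CNOT3*, beside 4.60% of all gene sums, and limma-voom called 0, beside 0%. The resistant pair lay wholly above the wild-type pair in *CNOT3* alone, beside 22.5% of all genes, and wholly below it in *CNOT6* alone, beside 20.5%. In the other 7 genes the pairs overlapped. The median log2 difference was 0.079 over the 9 genes and 0.014 over all genes tested.

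**Figure D2:**
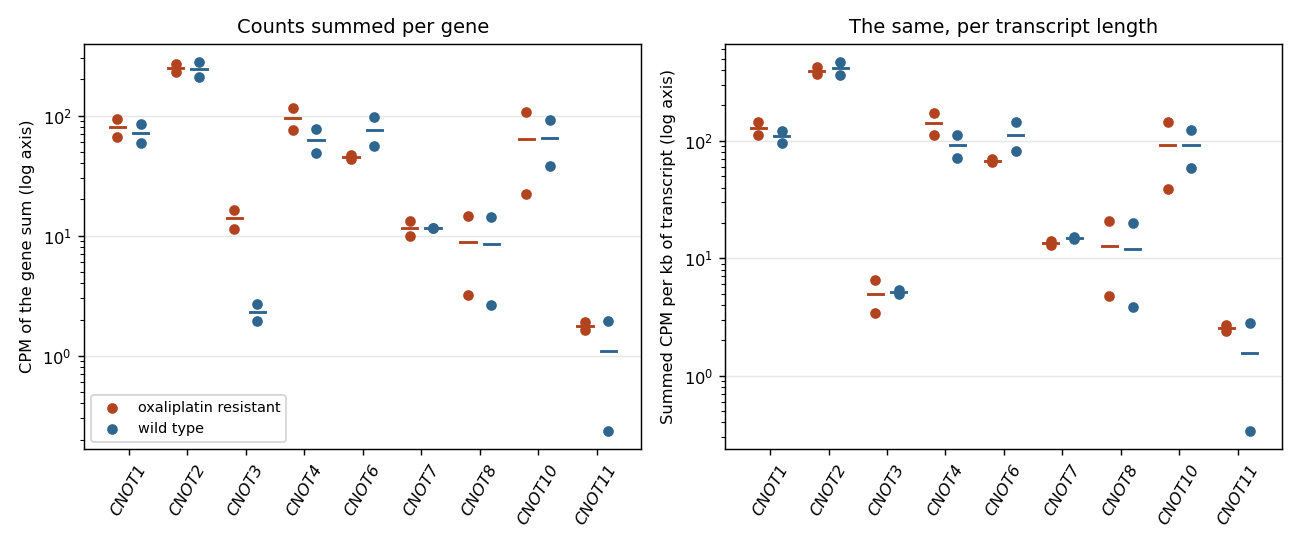
Gene sums of the 9 genes in each library (points) with group means (lines), resistant left and wild type right, as CPM (left panel) and as CPM per kb of transcript (right panel), both on log axes. In CPM the resistant points of CNOT3 (11.4 and 16.4) lie above the wild-type points (1.96 and 2.68), whereas per kb (3.40 and 6.56 against 4.98 and 5.40) they overlap.

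*CNOT3*, whose protein pairs with that of *CNOT2* in the NOT module, had gene sums of 429 and 599 counts in resistant cells, against 58 and 73 in wild type. In CPM these were 11.4 and 16.4 in resistant cells, against 1.96 and 2.68 in wild type. Both resistant values lay above both wild-type values. The means were 13.9 ± 3.50 CPM in resistant cells and 2.32 ± 0.509 CPM in wild type (SD, n = 2 each), 5.98-fold higher, with a log2 difference of 2.58 (SE 0.45) that did not pass (edgeR adjusted p = 0.349).

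The makeup of the *CNOT3* sum differed far more than its size. CNOT3-210, the transcript that keeps the 256-base intron shown above, had 407 and 536 counts in resistant cells, against 2 and 3 in wild type. Both wild-type values were within the 3 counts that a count of 0 allows. Pooled over the libraries of a group, the ratio of resistant to wild-type CPM was 146 (95% exact interval from counting error alone, 62.2 to 450.0), and the fitted log2 difference was 7.12 (SE 0.64, edgeR adjusted p = 0.329). Its share of the gene sum was 94.9% (95% interval 92.3 to 96.8) and 89.5% (86.7 to 91.8) in resistant replicates 1 and 2, against 3.45% (0.420 to 11.9) and 4.11% (0.856 to 11.5) in wild-type replicates 1 and 2. These are shares of counts, not of molecules, because the transcripts differ in length. Per kb of transcript, mean CPM in resistant cells was 2.33 for CNOT3-210, 1.88 for CNOT3-213 and 0.768 for CNOT3-211. The wild-type means per kb were 0.0161, 3.84 and 1.33 in the same order.

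The other *CNOT3* transcripts did not share this pattern. CNOT3-213, which runs 10 bases past its exon, had 16 and 34 counts in resistant cells, against 50 and 30 in wild type. These overlap in counts but not in CPM, where the resistant pair was lower (log2 difference -1.02, SE 0.69, edgeR adjusted p = 0.914). CNOT3-211, the transcript that ends inside an intron, had 6 and 29 counts in resistant cells, against 6 and 40 in wild type. Its values differed more between the libraries of a group than between the groups. Without CNOT3-210 the sum was 22 and 63 counts in resistant cells, against 56 and 70 in wild type. The mean of that reduced sum was 1.15 ± 0.803 CPM in resistant cells and 2.23 ± 0.479 CPM in wild type (SD, n = 2 each), and its log2 difference was -0.95, the opposite sign to that of the whole sum.

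Transcript length matters for the size of the *CNOT3* difference. CNOT3-210 is 4537 bases long and the other transcripts are 516 and 299 bases, and a longer transcript gives more counts per molecule. Summed as CPM per kb of each transcript, *CNOT3* was at 3.40 and 6.56 in resistant cells, against 4.98 and 5.40 in wild type. On this scale the groups overlapped, with means of 4.98 in resistant cells and 5.19 in wild type. CNOT3-213 alone, with few counts, gave 1.88 of the resistant mean and 3.84 of the wild-type one. The scale uses full annotated lengths, and at 299 bases this transcript is short beside paired 150-base reads, so near-equal means do not show equal levels. The counts of CNOT3-210 also rest on little sequence of its own: 6.97% of its 31-base words occur in no other GENCODE 29 transcript. An exon of *LENG1*, a gene on the opposite strand, overlaps its end, and no source used here says whether the counting used strand. The part of reads from coding *CNOT3* or from *LENG1* in this count was not tested.

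By the root mean square difference of centred log2 CPM over the 4 libraries, the genes whose sums followed *CNOT3* most closely were *BTBD8* (0.155), *MRFAP1L1* (0.171) and *ATP5F1B* (0.175), among 6867 genes at or above the median level. *BTBD8* had 37.9 and 43.9 CPM in resistant cells, against 7.14 and 7.93 CPM in wild type. All 3 were picked for this likeness, so their values are a description.

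*CNOT2*, the other NOT-module gene (chr12:70242994-70354993, plus strand), had the largest gene sum of the family, with 10105 and 8425 counts in resistant cells, against 8187 and 5657 in wild type. Its means were 249.6 ± 27.3 CPM in resistant cells and 242.3 ± 48.8 CPM in wild type (SD, n = 2 each), a log2 difference of 0.043 (SE 0.28, edgeR adjusted p = 0.980) with overlapping groups. Those tested among its 16 transcripts had differences of both signs, and none passed in edgeR. CNOT2-243 had 1059 and 0 counts in resistant cells, against 3096 and 1952 in wild type. Both resistant values were lower, but they lay far apart, and the log2 difference was -2.64 with an SE of 2.97 (edgeR adjusted p = 0.970). Every base of this transcript lies in coding exons of *CNOT2*, and 6.59% of its 31-base words occur in no other transcript. Of all its 31-base words, 13.2% also occur in other genes.

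CNOT2-238 had 1822 and 829 counts in resistant cells, against 311 and 119 in wild type. All values of the resistant pair lay above the wild-type pair, and the mean was 29.5 ± 15.0 CPM in resistant cells and 6.12 ± 3.56 CPM in wild type (SD, n = 2 each), 4.82-fold higher (log2 difference 2.27, SE 0.74, edgeR adjusted p = 0.623). The log2 difference was 1.63 without resistant replicate 1 and 3.03 without wild-type replicate 1, the lowest and highest with 1 library left out. This processed transcript (ENST00000552422) ends in 204 bases outside coding exons, at chr12:70307698-70307901 on the plus strand, and 49.2% of its words occur in no other transcript. The stretch is shown because the rest of the transcript is shared with coding exons, and it carries no capitals because neither end is an intron boundary next to a coding exon.
CNOT2-238: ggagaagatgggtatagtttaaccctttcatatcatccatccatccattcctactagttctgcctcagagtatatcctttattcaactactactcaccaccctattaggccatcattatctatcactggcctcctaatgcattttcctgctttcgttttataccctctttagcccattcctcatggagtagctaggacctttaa

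Of the other large *CNOT2* transcripts, CNOT2-205 and CNOT2-222 had higher means in resistant cells, and CNOT2-229 differed little (log2 difference -0.096, SE 0.55). CNOT2-205 had 3029 and 1849 counts in resistant cells, against 1824 and 595 in wild type, overlapping narrowly in CPM. CNOT2-222 had 1270 and 1701 counts in resistant cells, against 894 and 681 in wild type, with no overlap and a log2 difference of 0.55 (SE 0.39, edgeR adjusted p = 0.919). CNOT2-229 had 947 and 2039 counts in resistant cells, against 1169 and 1304 in wild type, and the wild-type values lay between the resistant ones. CNOT2-230 holds under 10% of the sum in every library and is named because of its p, after its values were seen. It had 382 and 245 counts in resistant cells, against 63 and 64 in wild type (log2 difference 1.92, SE 0.47, edgeR adjusted p = 0.429). With CNOT2-243 left out, a choice made after seeing these values, the *CNOT2* sum was 9046 and 8425 counts in resistant cells, against 5091 and 3705 in wild type. This reduced sum had means of 235.5 ± 7.42 CPM in resistant cells and 154.1 ± 25.5 CPM in wild type (SD, n = 2 each), and its log2 difference was 0.61.

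**Figure D3:**
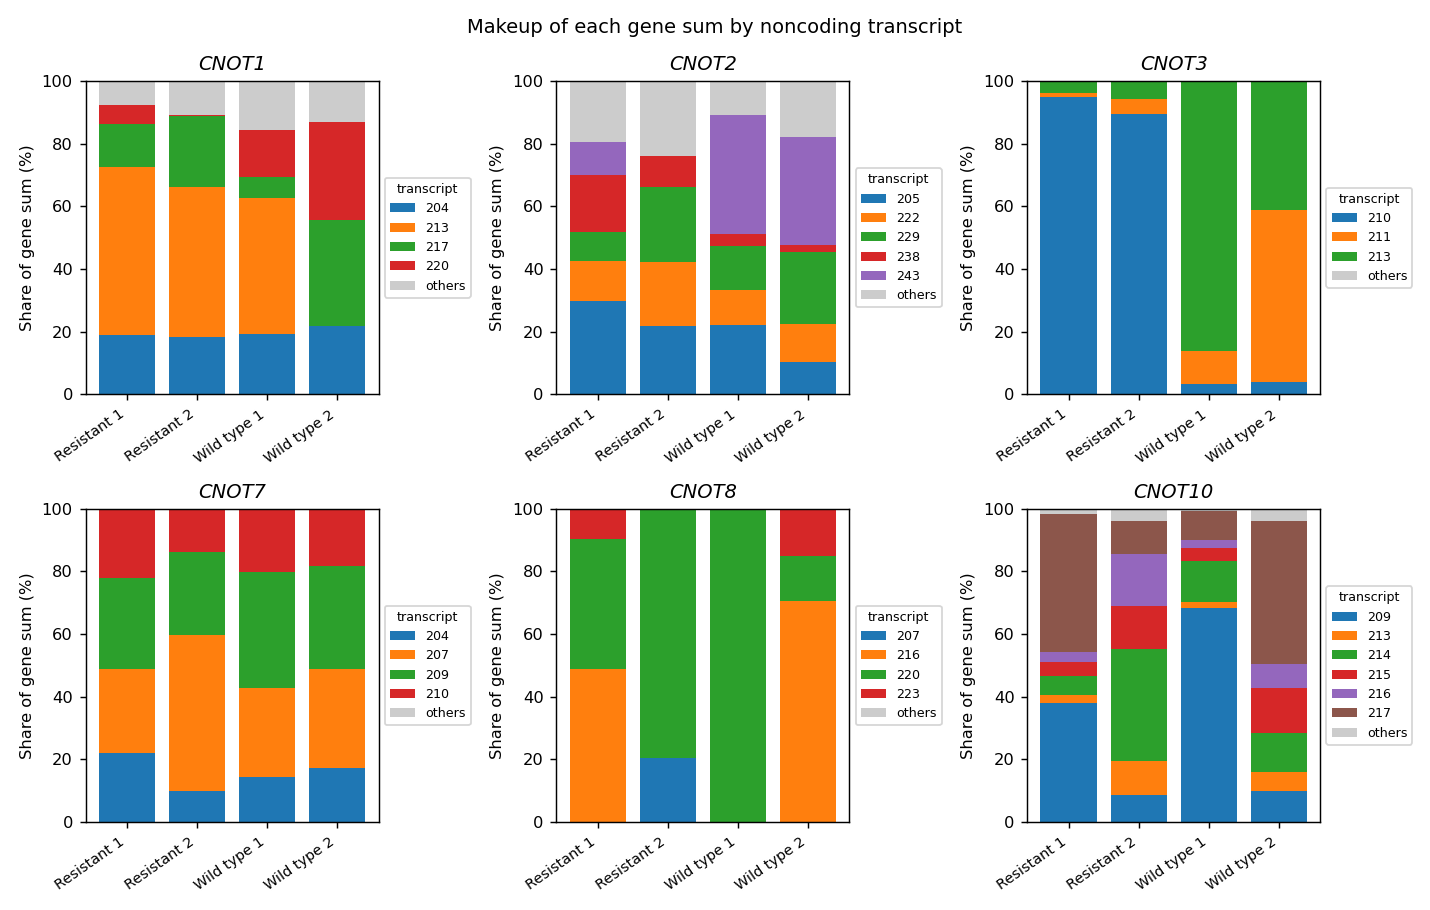
Share of each gene sum (%) held by each noncoding transcript, 1 stacked bar per library, for the 6 genes with more than 1 transcript at 10% or more of the sum in some library. Shares are of counts, without scaling for transcript length. CNOT3-210 (blue, CNOT3 panel) fills 94.9% and 89.5% of the resistant bars, against 3.45% and 4.11% of the wild-type bars; in CNOT8 and CNOT10 the bars of a group differ as much as bars of different groups.

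*CNOT1*, the scaffold gene (chr16:58519951-58629886, minus strand), had sums of 3542 and 2429 counts in resistant cells, against 2516 and 1595 in wild type. The means were 80.3 ± 19.7 CPM in resistant cells and 71.8 ± 18.7 CPM in wild type (SD, n = 2 each), a difference smaller than either SD. CNOT1-213, its largest transcript, had 1904 and 1160 counts in resistant cells, against 1093 and 0 in wild type. The wild-type value of 0 came from a library in which the other *CNOT1* transcripts together held 1595 counts. Without CNOT1-213 the sums were 1638 and 1269 counts in resistant cells, against 1423 and 1595 in wild type. CNOT1-220, a retained intron, had 222 and 11 counts in resistant cells, against 374 and 497 in wild type, lower but widely spread within the resistant pair (log2 difference -2.31, SE 1.54, edgeR adjusted p = 0.914). CNOT1-204 had 669 and 449 counts in resistant cells, against 482 and 350 in wild type, and CNOT1-217 had 480 and 547, against 173 and 539, both with overlapping groups in CPM. CNOT1-204 overlaps exons of *SETD6* and of an antisense RNA on the opposite strand.

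Among the catalytic subunits, *CNOT6* was represented by CNOT6-203 alone, whose 1646 and 1705 counts in resistant cells stood against 1642 and 2624 in wild type. The gene means were 45.2 ± 1.97 CPM in resistant cells and 76.0 ± 28.9 CPM in wild type (SD, n = 2 each), a log2 difference of -0.75 (SE 0.38, edgeR adjusted p = 0.694). The groups did not overlap in CPM, but the wild-type pair was spread more widely than the gap between groups, and without wild-type replicate 2 the log2 difference was -0.30. This processed transcript (ENST00000502447) contains 1 whole coding intron, at chr5:180564594-180564674 on the plus strand, its only stretch outside coding exons, shown with the GT and AG of the intron in capitals.
CNOT6-203: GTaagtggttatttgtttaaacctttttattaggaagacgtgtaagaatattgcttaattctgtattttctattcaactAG

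*CNOT7*, a CAF1-type deadenylase gene, had nearly equal means, from 374 and 483 counts in resistant cells, against 345 and 312 in wild type. Its means were 11.6 ± 2.30 CPM in resistant cells and 11.6 ± 0.145 CPM in wild type (SD, n = 2 each), a log2 difference of 0.0015 (SE 0.35). All 4 of its transcripts were counted in every library. CNOT7-207 had 100 and 240 counts in resistant cells, against 98 and 98 in wild type, CNOT7-204 had 83 and 48, against 50 and 54, and CNOT7-210 had 83 and 66, against 70 and 57. These 3 overlapped between groups in CPM. CNOT7-209 had 108 and 129 counts in resistant cells, against 127 and 103 in wild type, lower in CPM without overlap (log2 difference -0.32, SE 0.43, edgeR adjusted p = 0.983). From 44.1% to 90.1% of the words of these transcripts occur in no other transcript, but 7.50% to 34.2% occur in other genes. CNOT7-204 and CNOT7-210 overlap exons of *VPS37A*, a gene on the opposite strand.

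*CNOT8*, the paralogue of *CNOT7*, also had similar group means, but its libraries lay far apart within each group. Its sums were 549 and 118 counts in resistant cells, against 78 and 388 in wild type, so that each group held a high and a low library. The means were 8.92 ± 8.05 CPM in resistant cells and 8.45 ± 8.21 CPM in wild type (SD, n = 2 each). CNOT8-216 had 269 and 0 counts in resistant cells, against 0 and 274 in wild type, and CNOT8-223 had 53 and 0, against 0 and 58. Both were thus counted in resistant replicate 1 and wild-type replicate 2 only. CNOT8-220, a retained intron, was counted throughout, at 227 and 94 in resistant cells, against 78 and 56 in wild type, overlapping in CPM, and CNOT8-207 had 24 counts in resistant replicate 2 alone, too few to test.
The first bases of CNOT8-216 (chr5:154859667-154859694, plus strand) and CNOT8-223 (chr5:154858219-154858248, plus strand) are the only ones outside coding exons. They are shown because the rest of each transcript is shared with the *CNOT8* mRNAs, and the capitals in CNOT8-216 mark an AG directly before a coding exon.
CNOT8-216: agactcaacgtttcttttcccgagcaAG
CNOT8-223: ctagaccacgccccttccttgttcgctcgg

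*CNOT10* (chr3:32685145-32773875, plus strand), whose protein binds the scaffold together with that of *CNOT11*, had sums of 3989 and 816 counts in resistant cells, against 2739 and 1040 in wild type. Replicate 1 of each group was the high one, and the means were 64.2 ± 59.3 CPM in resistant cells and 65.4 ± 38.5 CPM in wild type (SD, n = 2 each). In resistant cells this spread lay in CNOT10-209 and CNOT10-217, and in wild type in CNOT10-209, while CNOT10-217 ran the other way. CNOT10-209 had 1517 and 71 counts in resistant cells, against 1868 and 102 in wild type. CNOT10-217, a retained intron, had 1751 and 86 counts in resistant cells, against 250 and 472 in wild type. With both left out, again a choice made after seeing the values, the sum was 721 and 659 counts in resistant cells, against 621 and 466 in wild type. Its means were then 18.6 ± 0.833 CPM in resistant cells and 19.1 ± 2.74 CPM in wild type (SD, n = 2 each), with a log2 difference of -0.036.

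The remaining *CNOT10* transcripts above 10% of the sum in some library were steadier. CNOT10-213 had 100 and 89 counts in resistant cells, against 56 and 63 in wild type, and CNOT10-216 had 130 and 134, against 73 and 81. Both pairs were higher without overlap in CPM, by log2 differences of 0.29 (SE 0.44, edgeR adjusted p = 0.989) and 0.40 (SE 0.43, edgeR adjusted p = 0.968). CNOT10-214 had 240 and 291 counts in resistant cells, against 357 and 130 in wild type, and CNOT10-215 had 179 and 112, against 114 and 150, both overlapping.
CNOT10-217 (chr3:32703791-32703867, plus strand) begins with sequence outside coding exons, shown because the rest of the transcript is shared with coding exons. The capitals mark the AG before a coding exon.
CNOT10-217: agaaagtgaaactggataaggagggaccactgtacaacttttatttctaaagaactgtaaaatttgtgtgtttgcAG

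*CNOT11* was represented by CNOT11-203, a retained intron with 71 and 60 counts in resistant cells, against 7 and 53 in wild type. Wild-type replicate 1 stood alone as the low library, and in CPM both resistant values lay between the wild-type ones. The log2 difference was 0.69 (SE 1.13, edgeR adjusted p = 0.909), it was 2.88 without wild-type replicate 2, and it was -0.14 without wild-type replicate 1.

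*CNOT4*, the ubiquitin ligase gene (chr7:135361795-135510127, minus strand), had sums of 2826 and 4235 counts in resistant cells, against 1432 and 2097 in wild type. The means were 95.5 ± 28.7 CPM in resistant cells and 62.7 ± 20.2 CPM in wild type (SD, n = 2 each), a log2 difference of 0.61 (SE 0.41, edgeR adjusted p = 0.756) with a narrow overlap. CNOT4-208 held the whole sum in 3 libraries and 92.5% (95% interval 91.3 to 93.6) in wild-type replicate 2. Taken alone, with 2826 and 4235 counts in resistant cells, against 1432 and 1939 in wild type, it was higher without overlap (log2 difference 0.69, SE 0.44, edgeR adjusted p = 0.906). CNOT4-209 had 158 counts in wild-type replicate 2 and 0 in the other 3 libraries.

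Levels were compared between genes as CPM per kb of transcript. In resistant cells *CNOT2* was highest at 396.9, followed by *CNOT4* at 143, *CNOT1* at 128, *CNOT10* at 92.1, *CNOT6* at 68.0, *CNOT7* at 13.4, *CNOT8* at 12.8, *CNOT3* at 4.98 and *CNOT11* at 2.56. In wild type *CNOT2* was highest at 413.6, followed by *CNOT6* at 113, *CNOT1* at 109, *CNOT4* at 91.9, *CNOT10* at 91.8, *CNOT7* at 14.8, *CNOT8* at 11.9, *CNOT3* at 5.19 and *CNOT11* at 1.57. *CNOT2* stood above every other gene in each of the 4 libraries. The next 4 genes overlapped in wild type, and in resistant cells *CNOT4* and *CNOT1* overlapped, as did *CNOT10* with each of its neighbours. *CNOT8* overlapped with both *CNOT7* and *CNOT3* in each group, and *CNOT11* lay below *CNOT3* in all 4 libraries.

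Spread between libraries of a group was compared with the difference between groups. For the 40 member transcripts the median size of the log2 ratio was 0.620 between the resistant libraries, 0.657 between the wild-type libraries and 0.550 between the group means. For all transcripts tested these were 0.611, 0.705 and 0.596. Of the 40, 3 (CNOT1-213, CNOT2-243 and CNOT8-216) were at 0 in 1 library and at 100 or more in the other of the same group, 7.50%, beside 8.02% of all transcripts. None of the 9 gene sums did so, beside 3.56% of all genes.

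**Figure D4:**
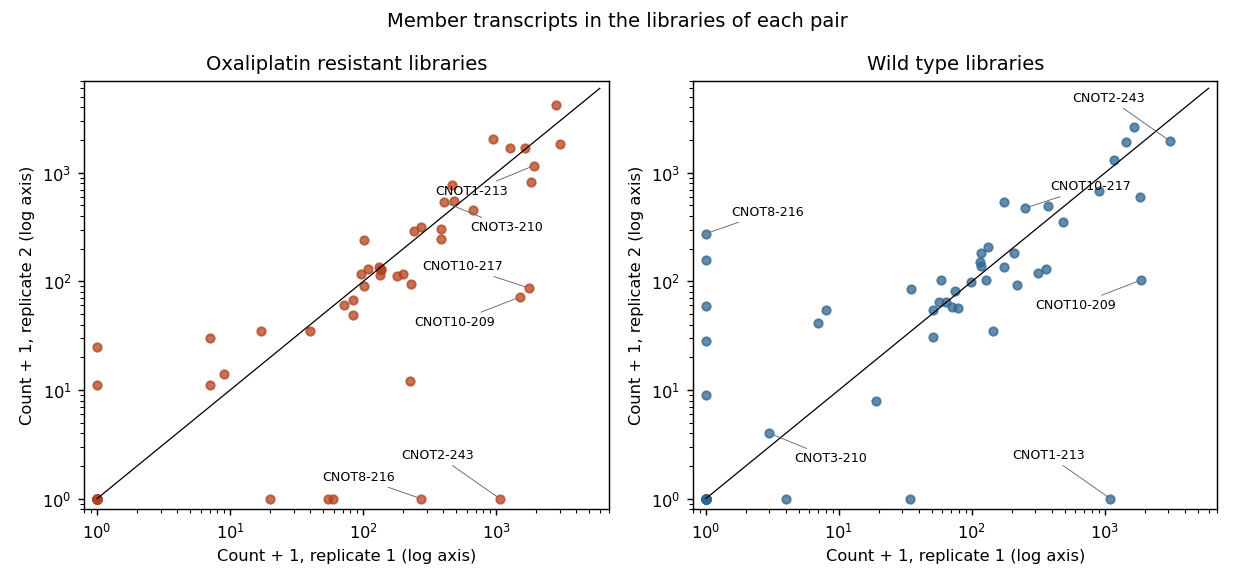
Count + 1 of each member transcript in replicate 1 (x) and replicate 2 (y) of the resistant (left) and wild-type (right) group, both axes logarithmic; the line marks equal counts. CNOT3-210 lies near the line in both groups (407 and 536, against 2 and 3), whereas CNOT1-213, CNOT2-243 and CNOT8-216 reach the lower or left edge, a count of 0, in 1 library.

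The makeup of a gene sum was compared by the share, in percentage points, that would have to be reassigned to make 2 libraries alike. Shares were of counts, without scaling for transcript length. For *CNOT3* it was 5.39 points between the resistant libraries, 45.1 points between the wild-type libraries and 85.4 to 91.4 points between libraries of different groups. For *CNOT2* it was 28.5, 17.2 and 32.8 to 41.6 points. In these 2 genes every between-group distance exceeded both within-group ones, and in the others it did not. The family was chosen by the CNOT3-210 contrast, so the *CNOT3* separation was built into that choice. The *CNOT2* distances include CNOT2-243, which held 10.5% and 0% of the sum in resistant cells, against 37.8% and 34.5% in wild type. Distances were not computed for genes outside the family, so nothing is read from how many members separated. *CNOT1* had 12.2 points within the resistant pair, 49.9 within the wild-type pair and 17.0 to 54.3 between groups, and *CNOT7* had 23.0, 5.82 and 8.81 to 21.3. *CNOT8* had 58.7, 85.6 and 20.3 to 85.6 points, and *CNOT10* had 64.1, 59.0 and 28.4 to 59.5.

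The transcripts share most of their sequence with coding ones, and 19 of the 56 share 31-base words with other genes. The median transcript had 79.6% of its bases in coding exons of its gene (lowest 11.1%, CNOT7-207), and 10 lay wholly inside them, 5 of which were at 0 in every library. Among tested transcripts, 10 had a mean log2 ratio within pairs above 2, and between 0% and 36.2% of their 31-base words occurred in no other transcript. The 12 tested transcripts with more than 40% such words had a within-pair log2 ratio of at most 1.16. These limits were set after seeing the values. Split instead at the median share of such words over the 56 transcripts, the contrast was small, with a median within-pair log2 ratio of 0.634 in the 25 transcripts at or above it (highest 4.16) and 0.808 in the 15 below it. CNOT3-210, with 6.97% such words, had within-pair log2 ratios of 0.44 in resistant cells and 0.30 in wild type. The wild-type ratio comes from 2 and 3 counts, which lie below the 0.1 CPM added before taking logs. The family was chosen by this transcript, so no steadiness is read from either ratio.

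**Figure D5:**
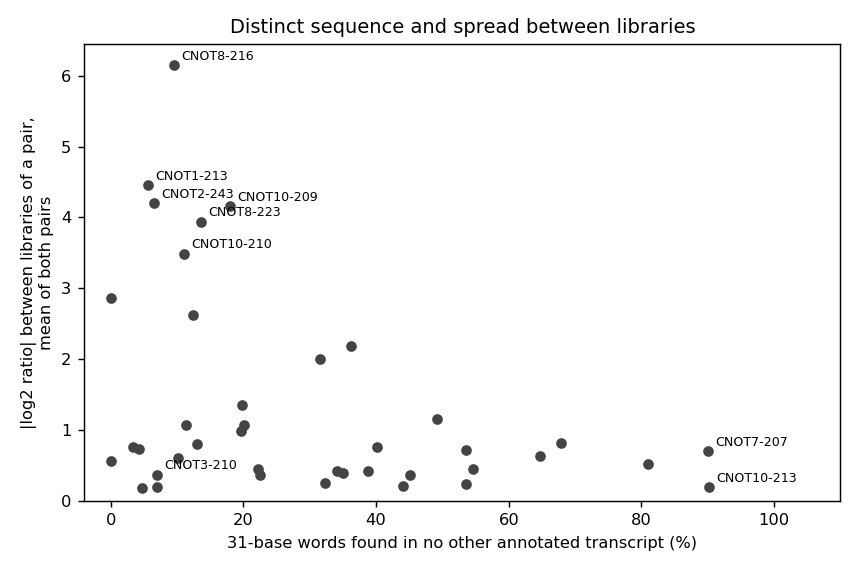
Each point is a tested member transcript; the x axis gives the percentage of its 31-base words found in no other GENCODE 29 transcript, and the y axis the size of the log2 ratio between libraries of a group, averaged over both groups. The 12 transcripts beyond 40% lie at or below 1.16, and CNOT8-216, CNOT1-213 and CNOT2-243 are highest, at 9.54%, 5.58% and 6.59% distinct words.

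Other genes of messenger RNA decay were examined in 3 lists, through noncoding transcripts only. Of 17 other deadenylases and CCR4-NOT partners 11 were tested, and 0 passed in edgeR, with 2 at an unadjusted p under 0.05, 1 in each direction, beside 4.74% higher and 3.93% lower of all gene sums. The median log2 difference was -0.39, with *ANGEL2*, a CCR4-family nuclease gene, at 66.6 and 62.3 CPM in resistant cells, against 101.1 and 129.1 CPM in wild type. *PAN3*, a subunit of the other cytoplasmic deadenylase, was at 63.8 and 70.5 CPM in resistant cells, against 85.5 and 67.0 CPM in wild type. Of 28 factors that recruit the complex 20 were tested, and 0 passed, also with 0 at an unadjusted p under 0.05 (median log2 difference 0.24). *YTHDF2*, a reader of m6A-marked RNA, was at 473.4 and 281.1 CPM in resistant cells, against 471.4 and 506.2 CPM in wild type, and *SAMD4A*, a Smaug homologue, at 493.0 and 272.9 CPM, against 362.2 and 384.8 CPM. Of 21 decapping and exonuclease genes 17 were tested, and 0 passed, with 2 lower at an unadjusted p under 0.05, beside 3.93% of all gene sums (median log2 difference -0.074). *XRN1*, the cytoplasmic exonuclease, was at 135.3 and 167.7 CPM in resistant cells, against 241.4 and 392.0 CPM in wild type, without overlap. *LSM1*, part of the ring that promotes decapping, was at 135.2 and 246.2 CPM in resistant cells, against 208.4 and 323.4 CPM in wild type.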

How the data were processed

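The authors' deposited table gives estimated counts for each transcript in each library. The unit was read from the deposited values, which were whole numbers with unequal totals. Per the labels, each library was built from 2 µg of total RNA and sequenced with paired-end 150-base Illumina reads. The submitters' processing notes list mm9, a mouse assembly, whereas the identifiers were human. The human build, the aligner, the counting tool and strandedness: not given in the sources used here. For that reason names, coordinates and sequences come from GENCODE release 29 on GRCh38.

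Counts were rounded (all were whole) and tested with edgeR 4.0.16 in R 4.3.3: quasi-likelihood test, TMM factors, filterByExpr at a minimum count of 10, two-sided, threshold 0.05. CPM used the TMM-scaled totals of the tested features, so transcript and gene scales differ. Gene sums hold named noncoding transcripts only. Alternatives were DESeq2 1.42.0, limma-voom (limma 3.58.1), RLE factors, no filter, a replicate block and leaving out each library. With 2 libraries against 2 an exact permutation test cannot go below 0.3333, so none was used. Libraries of a group differed beyond sampling noise (chi-square per transcript 265.9 resistant, 238.5 wild type), and all 4 were kept. Distinctness was counted in 31-base words. Member transcripts holding at least 10% of their gene sum in a library are named. From each list of other decay genes, the 2 tested genes of highest mean are named. The members and lists were chosen with earlier results of these data known. The script was tested on simulated data. Python 3.11.15 with SciPy 1.17.1, pandas 2.3.3 and matplotlib 3.10.9 made the tables and figures. The sequence of 1 stretch is not reported here.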

Additional observations from a re-analysis of the deposited data

How the results depend on the processing

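Under DESeq2, 632 gene sums, 2261 transcripts and 1 of the 9 *CNOT* gene sums passed, against 0, 0 and 0 in edgeR. Under RLE factors, no filter, limma-voom and each library left out (range 0 to 0), 0 passed. Same-numbered replicates share only a number in the labels (correlation of their deviations 0.0084 over transcripts and -0.019 over gene sums), and with the replicate block 0 passed (781 gene sums and 1961 transcripts at an unadjusted p under 0.05, against 1192 and 3283 without it). The *CNOT3* log2 difference lay between 2.30 and 2.82 with 1 library left out. Leaving out a library turned the sign for *CNOT1* (-0.11 to 0.46), *CNOT2* (-0.15 to 0.27), *CNOT7* (-0.21 to 0.19), *CNOT8* (-1.38 to 1.76), *CNOT10* (-1.55 to 0.75) and *CNOT11* (-0.14 to 2.88), and *CNOT7*, near 0, also turned under RLE factors, no filter, DESeq2, limma-voom and the block. Without its largest transcript a sum had log2 differences of -0.45 (*CNOT1*), -0.12 (*CNOT2*), -0.95 (*CNOT3*), -0.22 (*CNOT7*) and 0.43 (*CNOT10*), opposite in sign to the whole sum, and of 0.65 (*CNOT8*), which kept its sign; the cause was not tested. Of 28 named transcripts tested, 3 to 7 turned sign with 1 library left out. With 2 libraries a group and a common dispersion of 0.542 for genes, a count of 0 calls does not show that levels were alike.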

Other observations

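A pair of further complex members, *CNOT6L*, a CCR4-type deadenylase gene, and *CNOT9*, an adaptor gene, had few noncoding transcripts in the table. The *CNOT6L* transcript ENST00000505983 had 135 and 55 counts in resistant cells, against 19 and 328 in wild type, and ENST00000508371 had 75 and 243, against 2 and 197. The *CNOT9* transcript ENST00000473626 had 134 and 241 counts in resistant cells, against 158 and 18 in wild type. In each of these the groups overlapped in counts.

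CNOT10-218 and CNOT10-219 have the same 551-base sequence in GENCODE 29, so reads cannot tell them apart. Their counts were 6 and 10 in resistant cells, against 18 and 7 in wild type, for CNOT10-218 and 8 and 13, against 3 and 0, for CNOT10-219. CNOT10-210 had 58 and 0 counts in resistant cells, against 0 and 27 in wild type, counted in the same libraries as CNOT8-216 and CNOT8-223.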
